A study of Mus musculus with 4 samples.

Results

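The 8 genes described here encode kinases and a scaffold of the RAF, MEK and ERK cascade, taken by name from the 23235 genes of the tables: Araf, Braf, Map2k1, Map2k2, Mapk3, Ksr1, Rps6ka1 and Rps6ka3. All 8 were found. They were measured by bulk RNA sequencing in mouse acute myeloid leukaemia that carries NRASG12V, a constitutively active mutant of the small GTPase NRAS, together with the Mll-AF9 fusion. The 4 libraries are 3 with NRASG12V expression off, after 48 h, 72 h and 96 h of doxycycline, and 1 with NRASG12V expression on. All 4 share the NRASG12V/Mll-AF9 genotype and a SCID/Beige host, an immune-deficient mouse, into which leukaemia cells were injected through the tail vein. The hosts were aged for 20 days before doxycycline was given by injection and in drinking water, which turns NRASG12V off. The on library carries the same treatment text and its column is headed 0 hours. No library is labelled as treated for any time with NRASG12V still on, so effects of the drug, of elapsed time and of the switch cannot be told apart. The labels name neither the harvested tissue, nor whether each library is a separate mouse, nor the promoter that drives NRASG12V.

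In this cascade, GTP-bound RAS recruits RAF kinases, among them ARAF and BRAF, to the membrane. RAF phosphorylates MEK1 and MEK2 (Map2k1, Map2k2), and these phosphorylate the ERK kinases, among them ERK1 (Mapk3). KSR1 is a RAF relative that holds RAF, MEK and ERK together as a scaffold. The RSK kinases (Rps6ka1, Rps6ka2, Rps6ka3) are activated by ERK and pass the signal on to transcription, translation and survival factors. Activating RAS mutations are frequent in myeloid leukaemia, and this cascade is one of the branches they drive. The cascade is switched mainly by phosphorylation, which RNA levels do not measure.

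Levels are FPKM, which counts fragments per transcript length and per library size, as scaled separately in each deposited table. They are given on a common scale set through the on library, which each deposited table repeats. A change is log2((off FPKM + 1)/(on FPKM + 1)) within the table of that time. It understates changes of low genes. The total depth of the libraries is unknown. In the low values, 1 unit of FPKM stood for 1.146, 1.04 and 1.19 times as many reads in the 48 h, 72 h and 96 h libraries, relative to the on library. As a test, limma compared the 3 off libraries, as 1 group, with the single on library over 11958 genes, using Benjamini-Hochberg adjustment at 0.05. The off libraries differ in time and may not be separate animals, so the p-values reflect the spread among these samples alone, which may be technical. For a single value an exact permutation test over 3 off libraries and 1 on library cannot go below p = 0.25.

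The Nras row stood at 16.5, 17.4 and 18.8 FPKM off, against 23.6 FPKM on, and its mean log2 change was -0.41 ± 0.09 (limma, Benjamini-Hochberg adjusted p = 0.128). Its reads may come from the mouse gene as well as from the transgene, whose species the labels do not give, so it is a weak check of the switch.

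With NRASG12V off, 2 of the 8 genes were lower and none higher in the limma test: Rps6ka1 (RSK1) and Map2k1 (MEK1). Among all genes tested, 15.2% were called lower and 11.8% higher, 27.0% in either direction. With the median change set to 0, the 1410 genes called higher and 1817 lower became 1641 higher and 1198 lower. Rps6ka1 fell by 0.90 ± 0.13 on the log2 scale and Map2k1 by 0.75 ± 0.21 (SD over 3 off times). No member was higher at an unadjusted p under 0.05 either. Araf, Braf, Ksr1, Map2k2, Mapk3 and Rps6ka3 did not pass, with mean log2 changes between -0.27 and 0.14. The median change of the 8 genes was -0.04, beside -0.08 over all genes tested. Rps6ka1 at 96 h was the single change of at least 2-fold among 8 genes and 3 times, just past the threshold at -1.04 on the log2 scale. It was lost with a pseudocount of 5 FPKM, with the median change set to 0 and with FPKM rescaled outside globins and short RNAs. In all, 4.85%, 5.76% and 8.16% of genes were at least 2-fold lower at 48 h, 72 h and 96 h, and 9.85%, 12.4% and 15.6% changed at least 2-fold in either direction. At least 1.5-fold lower were 1, 2 and 2 of the 8 genes at the 3 times, beside 17.6%, 18.3% and 19.8% of all genes, and none was 1.5-fold higher. In either direction the shares over all genes were 29.8%, 33.3% and 35.7%. Placed by level, the on library lay above all 3 off libraries for 3 members (Map2k1, Rps6ka1 and Rps6ka3) and below all of them for 1 (Braf). Over all genes tested, these shares were 45.7% and 33.4%.

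**Figure D1:**
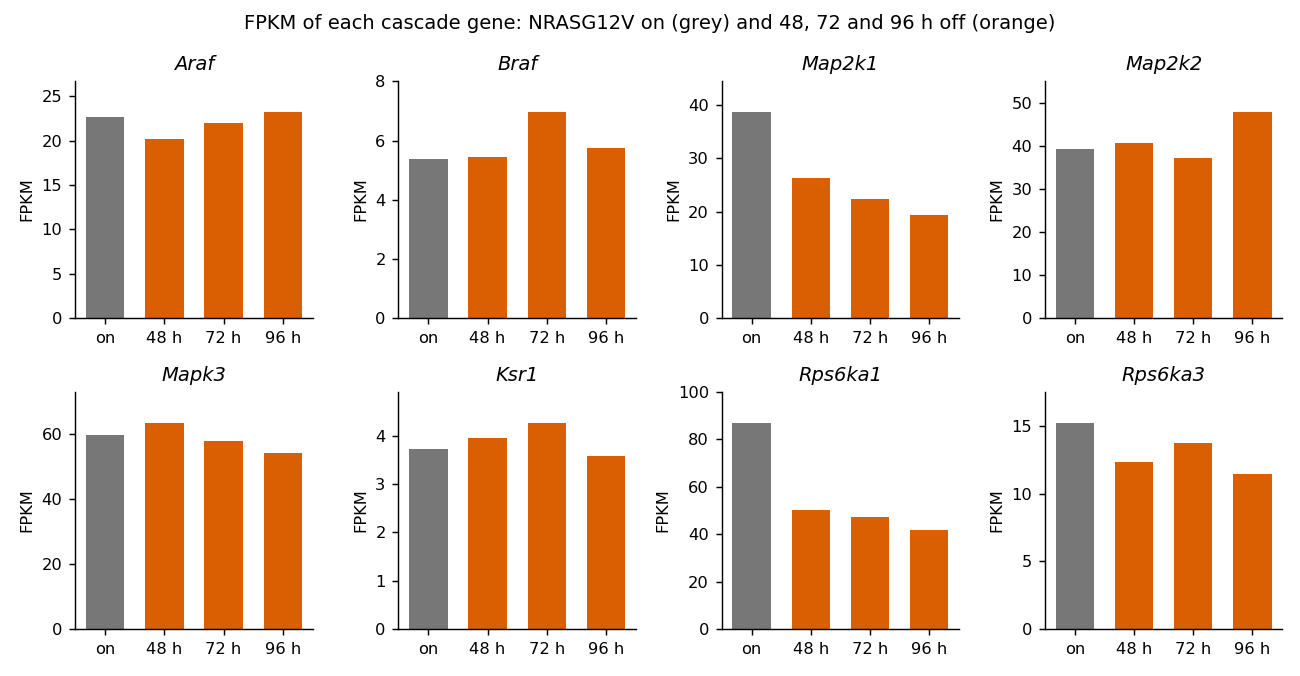
FPKM of each of the 8 genes (y axes, each from 0) in the library with NRASG12V on (grey) and in those at 48 h, 72 h and 96 h off (orange), 1 bar per library. Map2k1 and Rps6ka1 stand below the on bar at every time and decline stepwise, whereas Map2k2, Mapk3, Araf and Ksr1 have off bars on both sides of the on level.

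The promoter stretches of both genes that fell, and of Map2k2, the close relative of Map2k1 that did not pass, are shown because Map2k1 and Rps6ka1 moved together. They are the 250 bases before the annotated start, from RefSeq (GRCm38.p6), which holds entries for 6 of the 8 genes (none for Mapk3 and Rps6ka3). The build of the deposited values is mm9, so the coordinates belong to the sequences only. Map2k1 lies at chr9:64253606-64253855 (minus strand), Map2k2 at chr10:81105665-81105914 (plus strand) and Rps6ka1 at chr4:133887798-133888047 (minus strand, the outermost of its annotated starts). Capitals mark matches to any of 6 motifs, searched on both strands: the GC box GGGCGG, the CCAAT box, the CRE half-site TGACGT, the ETS core CCGGAA, the AP-1 site TGANTCA and the E-box CACGTG.
Map2k1: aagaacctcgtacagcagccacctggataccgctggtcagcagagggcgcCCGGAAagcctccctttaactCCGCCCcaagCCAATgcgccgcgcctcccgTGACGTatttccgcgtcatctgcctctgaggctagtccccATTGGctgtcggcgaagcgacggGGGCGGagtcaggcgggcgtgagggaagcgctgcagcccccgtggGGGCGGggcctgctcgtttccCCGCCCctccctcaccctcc
Map2k2: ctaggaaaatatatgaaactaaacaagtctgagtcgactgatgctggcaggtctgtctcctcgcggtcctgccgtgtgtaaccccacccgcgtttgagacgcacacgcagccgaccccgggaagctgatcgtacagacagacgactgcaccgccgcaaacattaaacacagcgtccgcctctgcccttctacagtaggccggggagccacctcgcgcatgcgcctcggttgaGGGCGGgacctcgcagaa
Rps6ka1: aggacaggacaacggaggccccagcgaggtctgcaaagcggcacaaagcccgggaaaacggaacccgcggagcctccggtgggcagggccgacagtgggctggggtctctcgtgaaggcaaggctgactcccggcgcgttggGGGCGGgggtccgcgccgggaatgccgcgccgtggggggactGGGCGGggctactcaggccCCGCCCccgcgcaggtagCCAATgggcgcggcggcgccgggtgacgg

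The Map2k1 window held 4 GC boxes, 2 CCAAT boxes, 1 CRE half-site and 1 ETS core. That of Rps6ka1 held 3 GC boxes and 1 CCAAT box, and that of Map2k2 held 1 GC box. No AP-1 site or E-box matched in these 3 windows, and no match overlapped another. Of 27026 promoter windows of the same length, 33.0% held a GC box, 34.5% a CCAAT box, 6.52% a CRE half-site, 12.3% an ETS core, 6.85% an AP-1 site and 6.04% an E-box. Bases G and C made up 68.4% of the Map2k1 window, 59.6% of the Map2k2 window and 74.4% of the Rps6ka1 window. These matches describe letters and are not evidence of binding.

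At the entry of the cascade, neither Araf nor Braf passed the test. Araf stood at 20.2, 21.98 and 23.2 FPKM at 48, 72 and 96 h off, against 22.6 FPKM in the on library. The on level lies inside the range of the off libraries. Its mean log2 change of -0.05 ± 0.10 did not pass limma's test (Benjamini-Hochberg adjusted p = 0.856; 95% interval of the change -0.48 to 0.37). Braf stood at 5.45, 6.96 and 5.76 FPKM at the 3 times off, against 5.39 FPKM in the on library. All 3 off libraries lay above the on library, the 48 h one barely, at 101% of its level. Its mean change of 0.14 ± 0.16 did not pass either (limma, Benjamini-Hochberg adjusted p = 0.624; 95% interval -0.31 to 0.59).

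The log2 ratio of Araf to Braf was 1.89, 1.66 and 2.01 off and 2.07 on. Its mean difference, off minus on, was -0.22 (SD over the off libraries 0.18) and was not tested. Such ratios inside a library do not depend on how libraries were scaled.

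Ksr1 was the lowest of the 8 genes in every library, at 3.95, 4.28 and 3.58 FPKM off and 3.72 FPKM on. Off libraries lay on both sides of the on library, and its change of 0.06 ± 0.10 did not pass (limma, Benjamini-Hochberg adjusted p = 0.819; 95% interval -0.35 to 0.48). Its relative Ksr2 reached at most 0.0769 FPKM in any library and was not tested. Map3k8, encoding a MEK kinase that acts downstream of inflammatory receptors, stood at 2.57, 3.48 and 2.82 FPKM off and 2.88 FPKM on, and did not pass (limma, Benjamini-Hochberg adjusted p = 0.942). Mos, a MEK kinase of germ cells, was listed at 0 in all 4 libraries.

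Of the MEK pair, Map2k1 fell and Map2k2 did not pass. Map2k1 stood at 26.4, 22.4 and 19.3 FPKM after 48, 72 and 96 h off, against 38.7 FPKM on, which is 68.2%, 57.8% and 49.9% of the on level. Every off library lay below the on library, and each later one below the one before. Such a stepwise order was seen for 2 of the 8 genes, Map2k1 and Rps6ka1, and for 12.9% of all genes tested. The log2 changes were -0.54, -0.76 and -0.97. By limma the fall passed (Benjamini-Hochberg adjusted p = 0.0351; 95% interval -1.25 to -0.26). Its mean change lay at percentile 10.96 of all genes tested, counted from the strongest fall. Without the 72 h library it did not pass (limma, Benjamini-Hochberg adjusted p = 0.102), nor with the median change of all genes set to 0 (adjusted p = 0.0853).

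Map2k2 stood at 40.6, 37.2 and 47.8 FPKM off, against 39.3 FPKM on. Its off libraries fell on both sides of the on library, the 96 h one highest, and its change of 0.08 ± 0.18 did not pass (limma, Benjamini-Hochberg adjusted p = 0.792; 95% interval -0.40 to 0.56). The Map2k1 to Map2k2 ratio was 0.6503, 0.602 and 0.405 off and 0.986 on, so both transcripts were near the same level in the on library. Map2k1 gave 39.4%, 37.6% and 28.8% of the summed MEK FPKM off and 49.6% on. The log2 ratio differed by a mean of -0.87, off minus on (SD over the off libraries 0.37). The smallest exact p that 3 against 1 libraries allow is 0.25, so the difference between both genes was not tested further. Summed MEK levels were 67.1, 59.6 and 67.2 FPKM off, against 78.02 FPKM on.

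**Figure D2:**
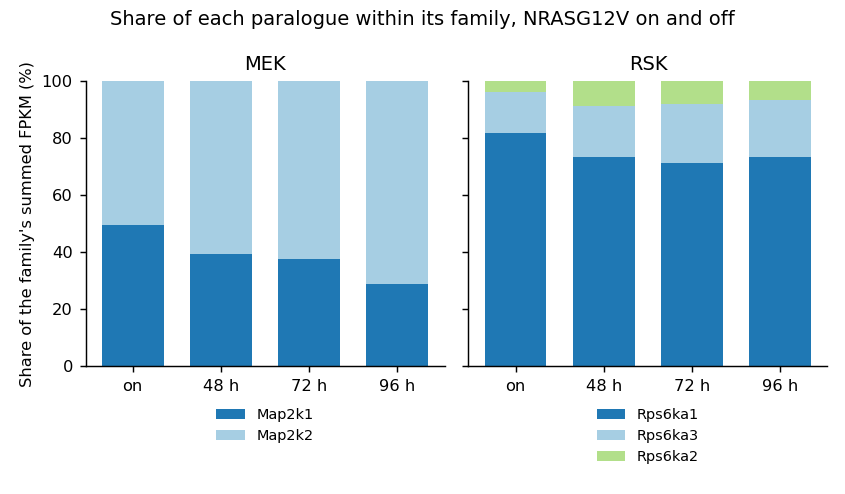
Share of each paralogue in the summed FPKM of its family (y axis, percent) in the on library and at 48 h, 72 h and 96 h off, for MEK and RSK genes, 1 stacked bar per library. The Map2k1 share is 39.4%, 37.6% and 28.8% off and 49.6% on, and the Rps6ka1 share 73.2%, 71.2% and 73.2% off and 81.8% on.

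Mapk3, encoding ERK1, had the highest level of the 8 genes in each off library and the second highest in the on library. It stood at 63.3, 57.7 and 53.9 FPKM off, against 59.5 FPKM on. The on level lies inside the off range, and the change of -0.03 ± 0.11 did not pass (limma, Benjamini-Hochberg adjusted p = 0.921; 95% interval -0.48 to 0.42).

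Among the ERK-activated RSK kinases, Rps6ka1 was the most abundant of the 8 genes in the on library. It stood at 50.2, 47.2 and 41.9 FPKM after 48, 72 and 96 h off, against 87.0 FPKM on, which is 57.7%, 54.2% and 48.1% of the on level. All off libraries were far below the on library and close to one another. The log2 changes were -0.78, -0.87 and -1.04. By limma the fall passed (Benjamini-Hochberg adjusted p = 0.0144; 95% interval -1.35 to -0.44). Its mean lay at percentile 7.51 of all genes tested. Without the 72 h library the adjusted p was 0.0524 (limma, Benjamini-Hochberg).

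Rps6ka3 (RSK2) stood at 12.4, 13.7 and 11.4 FPKM off, against 15.2 FPKM on. Each off library lay below the on library, but the change of -0.27 ± 0.12 did not pass (limma, Benjamini-Hochberg adjusted p = 0.309; 95% interval -0.70 to 0.16). Rps6ka2 (RSK3) stood at 6.02, 5.32 and 3.89 FPKM off, against 4.17 FPKM on. Its off libraries lay on both sides of the on library (0.22 ± 0.27; limma, Benjamini-Hochberg adjusted p = 0.502). Rps6ka1 remained the major RSK transcript, with 4.06, 3.44 and 3.66 times the level of Rps6ka3 off and 5.71 times on. Summed over the 3 genes, RSK transcripts held 68.5, 66.2 and 57.2 FPKM off, against 106 FPKM on. Rps6ka6 was listed at 0 on and reached at most 0.0751 FPKM off.

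Of 5 other measured kinases that ERK activates, Rps6ka2 included, 2 were called lower (40%, beside 15.2% of all genes tested). None was called higher (beside 11.8%). Their median change was -0.11, near the -0.08 of all genes tested. Rps6ka4 (MSK2), a nuclear kinase acting on CREB and histone H3, stood at 12.4, 11.02 and 11.5 FPKM off, against 21.98 FPKM on. All off libraries of Rps6ka4 lay well below the on level, at 56.6%, 50.1% and 52.1%. It fell by 0.86 ± 0.08 (limma, Benjamini-Hochberg adjusted p = 0.0115). The related Rps6ka5 (MSK1) stood at 3.15, 3.75 and 3.09 FPKM off, against 5.56 FPKM on, and fell by 0.60 ± 0.12 (limma, Benjamini-Hochberg adjusted p = 0.0418). Without the 72 h library the adjusted p of Rps6ka5 was 0.0741 and that of Rps6ka4 0.0470 (limma, Benjamini-Hochberg). Rps6ka4 passed in 11 of 12 alternatives and Rps6ka5 in 5 of 12. Rps6ka5 did not pass with the median change set to 0, nor with FPKM rescaled outside globins and short RNAs. Mknk1 and Mknk2, whose kinases phosphorylate the cap-binding factor eIF4E, did not pass. Mknk1 stood at 27.5, 29.6 and 25.4 FPKM off and 21.99 FPKM on (limma, Benjamini-Hochberg adjusted p = 0.251), and Mknk2 at 76.2, 80.5 and 99.4 FPKM off and 91.9 FPKM on (adjusted p = 0.728).

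**Figure D3:**
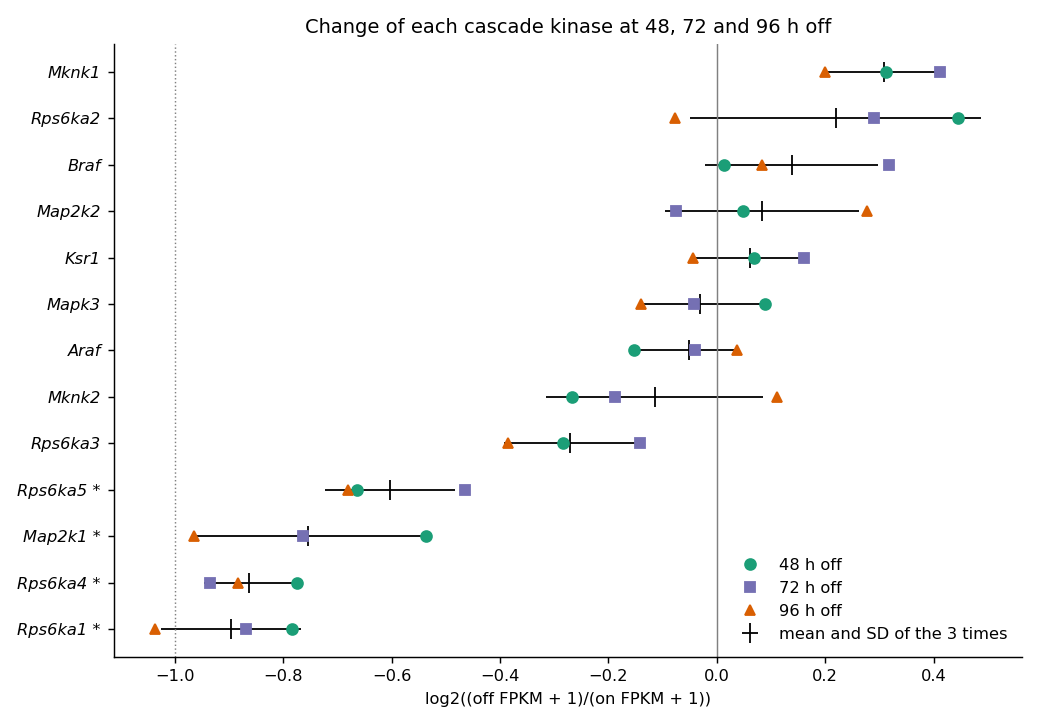
Log2 change (x axis) of the 8 genes and of the other ERK-activated kinases that passed the filter (y axis, ordered by mean change) at 48 h, 72 h and 96 h off, 1 point per library, with black ticks and bars for the mean and SD of the 3 times, the solid line at no change and the dotted line at a 2-fold fall. Asterisks mark genes called lower by limma. Rps6ka1, Rps6ka4, Map2k1 and Rps6ka5 lie apart on the left, with all 3 times below -0.4.

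Ordered by level, the on library ran Rps6ka1, Mapk3, Map2k2, Map2k1, Araf, Rps6ka3, Braf and Ksr1. At 48 h and 72 h the order differed in that Mapk3 stood above Rps6ka1. By 96 h Map2k2 had also passed Rps6ka1 and Araf had passed Map2k1. Over the 3 off libraries, Rps6ka1 averaged 46.4 ± 4.19 FPKM and Map2k2 41.9 ± 5.41 FPKM, and Map2k1 22.7 ± 3.55 FPKM and Araf 21.8 ± 1.501 FPKM (SD, n = 3 off libraries each). Within each of these 2 neighbouring pairs the order turned between 72 h and 96 h, so the averages do not rank them. Each SD here includes change over time. Mapk3 averaged 58.3 ± 4.74 FPKM, Rps6ka3 12.5 ± 1.153 FPKM, Braf 6.06 ± 0.80 FPKM and Ksr1 3.94 ± 0.35 FPKM, each separated from its neighbours by more than 1 SD.

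Some markers of cell types, leukocytes among them, changed in the same libraries. Over all genes tested, 15.2% were called lower and 11.8% higher. Of 24 erythroid markers, 22 were called higher and none lower. Both alpha globins, Hba-a2 and Hba-a1, had a listed 0 at 96 h. Without them, the summed level was 24630, 36842 and 39691 FPKM off, against 7857 FPKM on. Of 18 pan-leukocyte genes, 6 were called lower (33.3%), none higher and 12 did not pass. Their sum was 4115, 3311 and 2544 FPKM off, against 5562 FPKM on, and none was at 0. Of 12 primary granule genes, 10 were lower, with sums of 680, 601 and 507 FPKM off and 3536 FPKM on. Called higher were 5 of 13 late neutrophil (38.5%), 5 of 10 megakaryocyte (50%), 3 of 13 macrophage (23.1%), 3 of 6 lymphocyte (50%) and 4 of 9 endothelial or stromal genes (44.4%). Of the macrophage, lymphocyte and stromal lists 1 gene each was lower (7.69%, 16.7% and 11.1%). Of 11 stress and dissociation genes, the heat shock genes Hsph1 and Dnajb1 were higher, and the 5 lower were the immediate-early genes Jun, Fos, Ier2, Dusp1 and Nr4a1, of which Fos and Ier2 also count among the ERK output transcripts. These are bulk samples, in which fewer cells of a type and less RNA per cell cannot be told apart.

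Set beside these lists, Map2k1 changed by -0.54, -0.76 and -0.97 and Rps6ka1 by -0.78, -0.87 and -1.04 at 48 h, 72 h and 96 h, while the pan-leukocyte median changed by -0.39, -0.70 and -1.05. Map2k1 thus differed from that median by -0.15, -0.06 and 0.09, and Rps6ka1 by -0.39, -0.17 and 0.02. At 48 h, 2 of the 18 pan-leukocyte genes lay below Rps6ka1, and at 96 h 9 of 18. With the pan-leukocyte median of each off library set to 0, an alternative chosen after seeing the data, neither gene passed (limma, Benjamini-Hochberg adjusted p = 0.954 for Map2k1 and 0.846 for Rps6ka1), nor did Rps6ka4 (0.835) or Rps6ka5 (0.986). Map2k2 and Mapk3 lay above the pan-leukocyte median at every time, Map2k2 by 0.44, 0.63 and 1.33 and Mapk3 by 0.48, 0.66 and 0.91. The part of cell composition in the changes of these genes was not tested. Setting the pan-leukocyte median to 0 multiplied the 48 h, 72 h and 96 h libraries by 1.313, 1.631 and 2.103. Such unequal factors alter the spread among the off libraries, and so the p-values, as well as the mean change. Map2k2, with a mean change of 0.79 in that setting, did not pass either. Not passing there thus cannot be read as following the leukocyte genes.

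**Figure D4:**
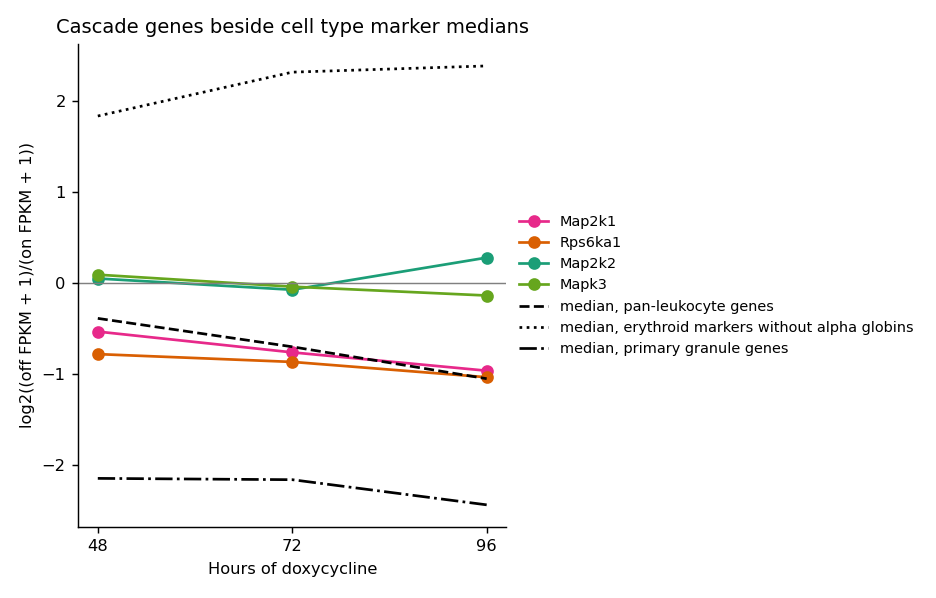
Log2 change (y axis) against hours of doxycycline (x axis) for Map2k1, Rps6ka1, Map2k2 and Mapk3 (coloured, 1 library per point) and medians of the pan-leukocyte, erythroid (without alpha globins) and primary granule lists (black lines). At 48 h Map2k1 (-0.54) and Rps6ka1 (-0.78) lie below the pan-leukocyte median (-0.39), at 96 h all 3 lie together (-0.97, -1.04 and -1.05), and Map2k2 and Mapk3 lie near 0.

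Among the genes whose pattern was most like that of Rps6ka1, by Euclidean distance over the 3 log2 changes among 1370 genes within 2-fold of its on level, were Cd48 (0.0795) and Stx7 (0.101). Cd48, encoding a surface protein of leukocytes, belongs to the pan-leukocyte list and stood at 35.2, 31.1 and 27.4 FPKM off, against 59.4 FPKM on. Stx7, encoding a syntaxin of endosomes, stood at 29.7, 28.6 and 23.4 FPKM off, against 52.5 FPKM on.

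Of 26 scaffolds and modulators of the cascade measured, 4 were called lower (15.4%, beside 15.2% of all genes tested), 1 higher (3.85%, beside 11.8%) and 21 did not pass, with a median change of -0.30. The share called lower is near that of all genes. Arrb1, encoding beta-arrestin 1, an adaptor that scaffolds RAF and ERK at receptors, rose by 1.41 ± 0.27 (limma, Benjamini-Hochberg adjusted p = 0.00581). It stood at 88.2, 125 and 122 FPKM off, against 40.9 FPKM on. Those that fell were Ywhaz, a 14-3-3 protein that binds RAF (-0.82 ± 0.16), Hsp90ab1, an HSP90 chaperone of RAF kinases (-0.72 ± 0.05), 2400001E08Rik (Lamtor1), which anchors the MEK scaffold Lamtor3 at lysosomes (-0.71 ± 0.01), and the kinase gene Pak2 (-0.64 ± 0.15), with limma adjusted p (Benjamini-Hochberg) from 0.0257 to 0.0473. Without the 72 h library none of these falls passed limma's test. With the median change of all genes set to 0, Ywhaz, Hsp90ab1 and Pak2 did not pass (mean changes -0.70, -0.60 and -0.53) and 2400001E08Rik did (-0.59). With FPKM rescaled outside globins and short RNAs, none of these 4 falls passed. None of them passed with the pan-leukocyte median set to 0 (adjusted p from 0.920 to 0.997), whereas Arrb1 did (adjusted p = 0.0029).

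Of 26 kinases of the other MAPK branches measured, 5 were called lower (19.2%, beside 15.2% of all genes tested), none higher and 21 did not pass, and the median change was -0.21. This share too is near that of all genes. Mapkapk2 and Mapkapk3, encoding the kinases activated by p38, fell most among them, with mean log2 changes of -1.56 ± 0.18 and -1.26 ± 0.29 (limma, Benjamini-Hochberg adjusted p = 0.00243 and 0.0085). Mapkapk2 stood at 57.8, 49.5 and 45.1 FPKM off, against 151 FPKM on, and lay below all 18 pan-leukocyte genes in its change at each time. Mapk6 (ERK3) fell by 0.90 ± 0.06, Mapk8 (JNK1) by 0.66 ± 0.12 and Map2k5, the MEK of the ERK5 branch, by 0.59 ± 0.04, with limma adjusted p (Benjamini-Hochberg) of 0.00958, 0.0288 and 0.0392. Without the 72 h library, the adjusted p of Mapk8 was 0.0848 and that of Map2k5 0.174. With the pan-leukocyte median set to 0, none of the 5 passed (limma, Benjamini-Hochberg adjusted p = 0.320 for Mapkapk2, 0.497 for Mapkapk3, 0.812 for Mapk6, 0.895 for Mapk8 and 0.955 for Map2k5). In the same order, their mean log2 changes in that setting were -0.85, -0.57, -0.21, -0.10 and 0.05. Because that setting also alters the spread among the off libraries, not passing there does not separate a smaller change from a wider spread. With the median change of all genes set to 0, Mapkapk2, Mapkapk3 and Mapk6 passed and Mapk8 and Map2k5 did not.

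Transcripts known to follow ERK activity were measured in the same libraries. Like the other lists, this one was chosen with earlier results of these data known. Of 20 measured, 15 were called lower (75%, beside 15.2% of all genes tested), none higher (beside 11.8%) and 5 did not pass. Their median change was -1.10, beside -0.08 over all genes tested. Etv4 had the largest fall (-2.67 ± 0.05), followed by Epha2 (-2.39 ± 0.11), Egr1 (-2.01 ± 0.02), Fos (-1.97 ± 0.19), Etv5 (-1.85 ± 0.08) and the cyclin gene Ccnd1 (-1.56 ± 0.43), with limma adjusted p (Benjamini-Hochberg) from 9.92e-05 to 0.00872. With the pan-leukocyte median set to 0, Etv4, Epha2, Egr1, Fos and Etv5 still passed (limma, Benjamini-Hochberg adjusted p from 6.37e-12 to 0.0497) and Ccnd1 did not (0.292). Because 1 FPKM is added after rescaling, this setting moves low genes less. Etv4, at 0.0629, 0.0926 and 0.0608 FPKM off, could hardly move. Passing among low genes thus cannot be set against failing among genes at higher levels. The 8 cascade genes spanned mean changes of -0.90 to 0.14.

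**Figure D5:**
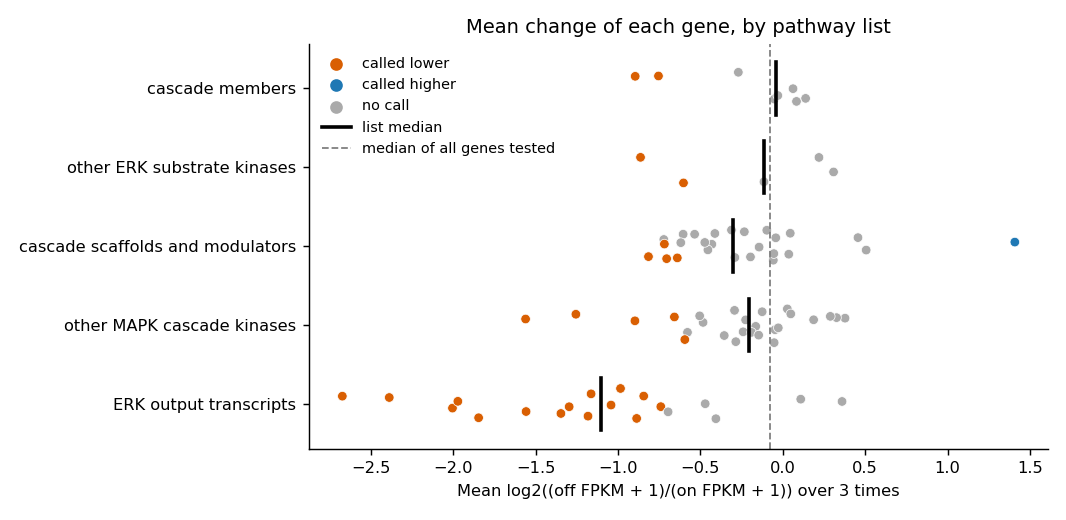
Mean log2 change over 3 times (x axis) of each measured gene, by pathway list (y axis), coloured by limma call, with black bars for list medians and a dashed line for the median of all genes tested (-0.08). The cascade members centre at -0.04 with Map2k1 and Rps6ka1 apart, and the ERK output transcripts centre at -1.10.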

How the data were processed

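RNA of 4 samples, 3 with NRASG12V off (48 h, 72 h and 96 h) and 1 with it on, was extracted with a Qiagen kit and sequenced from Illumina libraries (labels' protocols). FPKM values were deposited by the authors, made with TopHat2 2.0.4 and Cuffdiff on mm9, per the submitters' processing notes. Which annotation and strand setting were used is not given in the sources here. Each of the 3 tables of 1 time repeats the on library, in the column headed 0 hours, at its own scale: at least 99.94% of its values above 0 agreed within 0.1% after 1 factor. That column served to bring all libraries to 1 scale. The table with the combined off value was not used.

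Changes were log2(off + 1) minus log2(on + 1) within a table, counted at 2-fold among genes reaching 1 FPKM in either library. The test was limma 3.58.1 (statmod 1.5.0, R 4.3.3), eBayes with trend and robust settings and 2 residual degrees of freedom, on genes reaching 1 FPKM in any library, which all 8 members did. The on library, having no partner, is taken to vary as the off libraries do. The fit was tested on simulated data. Of 228 list entries, 226 matched a gene. Members and lists were chosen with earlier results of these data known. Of the longer lists, at most the 6 called genes with the largest change are named. Alternatives varied the pseudocount, filter, scaling, fit and libraries. Results for some related genes are not reported here.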

Additional observations from a re-analysis of the deposited data

Results flagged for a closer look

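Some genes of the cascade lay on opposite sides of the on library at 96 h and at 48 h, with 1 library per time, so that the difference was not tested. The log2 change at 96 h minus that at 48 h was 0.19 for Araf (0.04 at 96 h and -0.15 at 48 h), -0.229 for Mapk3 (-0.14 and 0.09) and -0.113 for Ksr1 (-0.04 and 0.07). It was -0.523 for Rps6ka2 (-0.08 and 0.44) and 0.379 for Mknk2 (0.11 and -0.27).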

How the results depend on the processing

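Among the 8 genes, Rps6ka1 passed limma's test in 10 of 12 alternatives and Map2k1 in 7 of 12, the other 6 genes in none. The number of members called, 2, became 1 without a filter on low values, with the median change set to 0 and with FPKM rescaled outside globins and short RNAs, and 0 with the pan-leukocyte median set to 0 (added after seeing the data). With 1 off library left out it ranged from 0 (without 72 h) to 2. All genes called, 3227, became 1518 with the pan-leukocyte median set to 0 and 6024 with linear time as a covariate. With 1 off library left out they ranged from 2300 to 4234. The limma split, 1410 higher and 1817 lower, became 1784 and 1091 with rescaling outside globins and short RNAs and 1399 and 119 with the pan-leukocyte median set to 0. The 2-fold split at 48 h, 587 higher and 569 lower, became 806 and 408 with the median set to 0 and 827 and 388 with rescaling, and at 72 h, 776 and 676, it became 1023 and 459 with rescaling. At 96 h, 867 and 957, it became 1055 and 758 with rescaling. Setting the median to 0 and rescaling removed shifts of -0.17, -0.10 and -0.08, and -0.19, -0.18 and -0.12, at 48 h, 72 h and 96 h. At a 1.5-fold threshold 1, 2 and 2 of the 8 members were lower at 48 h, 72 h and 96 h, beside 17.6%, 18.3% and 19.8% of all genes. In either direction 3499, 3907 and 4187 genes passed that threshold. Genes at least 2-fold changed were 1830 and 2185 at 48 h and 72 h with a pseudocount of 0.1 FPKM, and 531, 686 and 916 at the 3 times with 5 FPKM. The single 2-fold member, Rps6ka1 at 96 h, was lost (0 members) with a pseudocount of 5 FPKM, with the median set to 0 and with rescaling outside globins and short RNAs. With the pan-leukocyte median set to 0, the sign turned for Map2k1 at 96 h (0.0692), Rps6ka1 at 96 h (0.0179), Hsp90ab1 (0.00384), 2400001E08Rik (0.00897), Pak2 (0.0644) and Map2k5 (0.0496), and, among members not called, for the mean changes of Rps6ka3 (0.41), Araf (0.65) and Mapk3 (0.68), as for some of their changes at single times. For these changes the cause was not tested. No paired analysis was possible because the labels give no replicate numbers and each group holds 1 library. Unknown depth limits what can be said of Braf and Ksr1, the lowest members.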
